A study of Homo sapiens with 10 samples.

Results

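Human microglia grafted into the brains of 13 mice treated with Lecanemab were compared between hosts that lack the FIRE enhancer of the mouse Csf1r gene and hosts that keep it. Cells were assigned to mice by hashtag antibodies, and a cell was kept as human when it held at least 1000 human UMIs (unique molecular identifiers, the counted molecules) and at most 5% mouse UMIs. This left 26563 cells of 49989 in the whole series, from 13 of 27 mice. Of these cells, 12519 came from 6 mice with the FIRE deletion (called FIRE mice) and 14044 from 7 mice with the enhancer intact (called intact mice).

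The labels give the hosts as APP-NLGF x FIRE KO and as APP-NLGF. Both carry the App NL-G-F knock-in and so form amyloid plaques, and by the study's methods grafted hosts of both kinds also lack Rag2 and Il2rg and carry human CSF1, on a mixed background. For a cohort of hosts that keep FIRE, used in a phagocytosis assay, the methods also describe depletion of mouse microglia in newborns with BLZ945, an inhibitor of CSF1R, before grafting. The labels do not say whether the intact mice used here received it, and if they did, the drug and the genotype cannot be told apart. All human cells derived from WA09 (H9), which is a single embryonic stem cell line. Mice received 10 mg/kg of antibody each week for 8 weeks, starting at 4 months of age. The Lecanemab-treated mice fell into 3 hashtag pools, each sequenced in libraries of its own. Pool 1 held 2 FIRE and 3 intact mice, pool 2 held 1 of each, and pool 3 held 3 of each. Another 13 mice of the same pools, treated with IgG1 antibody (5 FIRE and 8 intact), served for the same contrast without Lecanemab. A further IgG1-treated intact mouse, AB09, had 1 kept cell and was left out.

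FIRE is an enhancer within an intron of Csf1r, the receptor for the growth factors CSF1 and IL-34 on which microglia depend. Mice without it have no microglia of their own, so grafted human cells have the brain to themselves, while in intact hosts they live beside mouse microglia. Microglia near amyloid plaques lower their resting program and switch on lipid and lysosomal genes (the DAM or plaque response), and subsets of them show type I interferon or antigen presentation programs.

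The host genotype was visible in the mouse transcripts of the same libraries, although cells had been sorted for human CD45. Mouse Csf1r, counted over all singlet barcodes of a mouse, reached 1.49 to 10.6 UMIs per 1000 singlets in the FIRE mice (median 4.13), and 68.3 to 313 in the intact mice (median 102). The groups lay far apart, and an exact two-sided permutation test within pools gave p = 0.0025, the smallest that its 400 assignments allow (Benjamini-Hochberg adjusted p = 0.0113 over the 9 values per mouse tested). Mouse P2ry12, a purinergic receptor of resting microglia, lay at 0.794 to 9.24 UMIs per 1000 singlets against 34.5 to 249, and mouse Cx3cr1, the fractalkine receptor, at 3.18 to 8.05 against 86.8 to 402. A set of mouse microglia genes took 0.289% to 1.04% of mouse UMIs in FIRE mice and 2.63% to 6.501% in intact mice (exact permutation p = 0.0025). Every Lecanemab-treated mouse therefore matched its label. Among the IgG1-treated mice AB12 did not: it is labelled intact but had 5.98 Csf1r UMIs per 1000 singlets, where the other 7 intact mice had 95.2 to 634 and the 5 FIRE mice 0.764 to 8.68. It was kept as labelled, and IgG1 values are given without it as well.

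**Figure D1:**
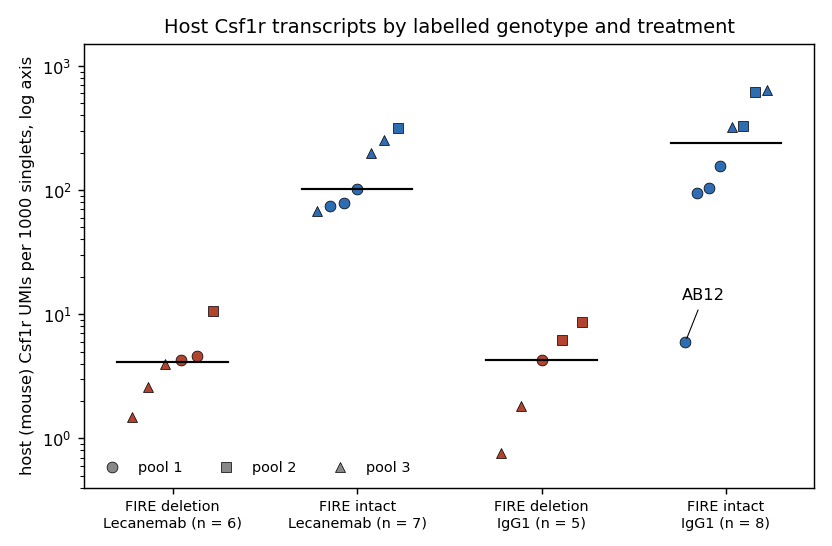
Mouse Csf1r UMIs per 1000 singlet barcodes, on a logarithmic axis, with a point for each mouse, by treatment and labelled host genotype, and a line at each median. The Lecanemab-treated FIRE mice sit between 1.49 and 10.6 and the intact mice between 68.3 and 313, and AB12, labelled intact and treated with IgG1, lies at 5.98 among the FIRE mice.

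The kept human cells of both hosts overlapped in number and quality. By the study's methods, sorted cells were pooled and loaded in a set range per animal. The counts of kept cells therefore cannot show how many grafted cells each brain held. Kept cells per mouse ran from 1182 to 3616 in FIRE mice and from 1124 to 2942 in intact mice (exact permutation p = 0.25), and the median number of human UMIs per cell from 2783.5 to 4755.5 and from 2879.5 to 4784 (exact permutation p = 0.75). Summed human UMIs per mouse ran from 4910076 to 11436920 in FIRE mice and from 4029884 to 10967059 in intact mice. Mouse transcripts made up 0.737% to 1.17% of UMIs in the kept cells of FIRE mice and 0.697% to 1.28% in those of intact mice (exact permutation p = 0.9825). The mitochondrial share had p = 0.5325 in the same exact permutation test. All 17 defining markers of microglia were detected in every mouse, with a summed level of 23790 to 28790 CPM (UMIs scaled to a common library total) in FIRE mice and 22080 to 25610 in intact mice. CD8A, TRAC, the mast cell genes TPSAB1, CPA3 and KIT, and the astrocyte gene AQP4 had no UMI. Other genes listed as markers of such cell types were detected. CD4 stood at 160 to 210 CPM over the 13 mice, SLC1A3 at 179 to 429 and MBP at 78.4 to 142. The monocyte and neutrophil genes S100A8 and S100A9 stood at 3.02 to 175 and 3.26 to 195 CPM. Some markers of border macrophages were present, and 23.5% to 38.5% of the cells of FIRE mice and 14.7% to 41.0% of those of intact mice held at least 3 UMIs over 7 such markers (exact permutation p = 0.8675). Because UMIs were summed over the cells of a mouse, more cells expressing a gene and more transcript per cell cannot be told apart in these sums. The labels name separate mice, so the error is the spread between mice.

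No human gene passed an adjusted p of 0.05 between the hosts under Lecanemab. Of 13321 genes tested by edgeR's quasi-likelihood fit, blocked on pool and adjusted by Benjamini-Hochberg, 0 (0%) were called and the smallest adjusted p was 0.127. At an unadjusted p under 0.05, 452 genes (3.39%) were higher and 379 (2.85%) lower in FIRE mice. DESeq2 called 6 genes higher, among them IL7R, DISP1, MAP2K6, PECAM1 and C3, and 4 lower, which were RAMP1, CMYA5, CDK6 and SNHG9. Its adjusted p were 1.519e-06 for IL7R, 0.0041 for RAMP1 and CMYA5, 0.0084 for DISP1 and CDK6, 0.0235 for SNHG9, 0.0237 for MAP2K6 and PECAM1, and 0.0473 for C3. limma-voom called 0. The CPM of FIRE and intact mice did not overlap for 7 genes. FIRE mice were above for 4 (0.03%), namely IL7R, UTF1, OLFML2B and AC244033.2, and below for 3 (0.0225%), namely CDK6, AL157394.3 and AC135893.1. The median log2 fold change of all genes was -0.0024, and 49.0% were higher in FIRE mice. Fold changes below are FIRE over intact, and none of them passed the adjusted threshold under Lecanemab in the edgeR fit.

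IL7R, the alpha chain of the receptor for interleukin-7, had the smallest p. The gene lies on chromosome 5 at 35852695 to 35879603, plus strand, in GRCh38. In pool 1 it stood at 37.9 and 36.2 CPM in the FIRE mice against 23.6, 22.4 and 22.6 in the intact mice. In pool 2 it stood at 56.8 against 10.3, and in pool 3 at 29.3, 47.3 and 39.5 against 19.4, 13.4 and 11.7. All 6 FIRE mice lay above all 7 intact mice. The log2 fold change was 1.25 (SE 0.19), which is 2.38-fold, with an adjusted p of 0.127 by edgeR's quasi-likelihood test with Benjamini-Hochberg adjustment and 1.519e-06 by DESeq2. Over all alternatives the adjusted p ran from 6.761e-23, without a filter on low counts, to 0.3555, without AB49, while the log2 fold change stayed between 1.017 and 1.379.

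The share of cells with an IL7R UMI, after each cell was thinned to 1000 human UMIs so that depth was equal, was 2.44% to 4.59% in FIRE mice and 0.955% to 2.45% in intact mice. The lowest FIRE mouse lay just under the highest intact mouse, which came from another pool. The difference of 1.99 percentage points had an exact permutation p of 0.0025 within pools, and 0.03 after Benjamini-Hochberg adjustment over the 12 genes tested this way. Unthinned, the shares were 8.10% to 14.6% and 3.47% to 6.57%. Barcodes with mostly mouse UMIs still held human UMIs, at a median of 77, and 0.309% of them carried IL7R. At so few UMIs this share cannot be set against those at 1000 UMIs. These 12 genes include the leading genes of the contrast, so the test is on the same mice that put them forward.

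The other 4 of the 5 genes with the smallest p among those higher in FIRE mice had smaller differences than IL7R, of the same sign in every pool. MAP2K6, a kinase that activates p38, stood at 20.5 to 27.2 CPM in FIRE mice (median 24.8) and 14.4 to 20.9 in intact mice (median 19.8). These ranges overlapped only slightly, and the log2 fold change was 0.40 (SE 0.07, edgeR Benjamini-Hochberg adjusted p = 0.154). PECAM1, an adhesion molecule of leukocytes and endothelium, stood at 28.3 to 47.4 CPM against 21.7 to 38.1, a log2 fold change of 0.40. Of the other genes listed as endothelial or mural (of the vessel wall), CDH5, CLDN5 and PDGFRB had 0, 1 and 1 UMIs over all mice. VWF had 8, RGS5 46, FLT1 139 and ACTA2 222. DISP1 (0.38) and GCLC (0.30), which encodes the catalytic subunit of the enzyme that starts glutathione synthesis, completed the leading 5, each above the intact mean of its pool in 6 of 6 FIRE mice.

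Among the leading genes lower in FIRE mice, RAMP1 had the largest difference. It encodes a partner protein of the receptor for the neuropeptide CGRP, and stood at 3.58 to 8.69 CPM in FIRE mice (median 6.59) and 7.76 to 32.8 in intact mice (median 11.1). All 6 FIRE mice lay below the intact mean of their pool, although the groups overlapped at the edge, and AB40 of pool 2 stood well above the other intact mice. The log2 fold change was -1.05 (SE 0.20, edgeR Benjamini-Hochberg adjusted p = 0.202), and it was -0.82 at its smallest when single mice were left out. The share of cells with a RAMP1 UMI at 1000 UMIs per cell was 0.234% to 0.599% in FIRE mice and 0.318% to 2.23% in intact mice, a difference of -0.67 points (Benjamini-Hochberg adjusted exact permutation p = 0.04). Of the mostly mouse barcodes, which were much shallower, 0.124% held a RAMP1 UMI. CDK6, a cyclin-dependent kinase of the G1 phase, stood at 7.95 to 12.7 CPM (median 10.1) against 13.04 to 19.2 (median 17.4), without overlap and with a log2 fold change of -0.62 (SE 0.12). Its share of cells differed by -0.40 points at equal depth (adjusted exact permutation p = 0.1255), and 0.0618% of mostly mouse barcodes held one. CMYA5 (-0.92), SNHG9 (-0.44) and the long non-coding RNA AL445623.2 (-0.94) were the others, each below the intact mean of the pool in 6 of 6 FIRE mice.

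**Figure D2:**
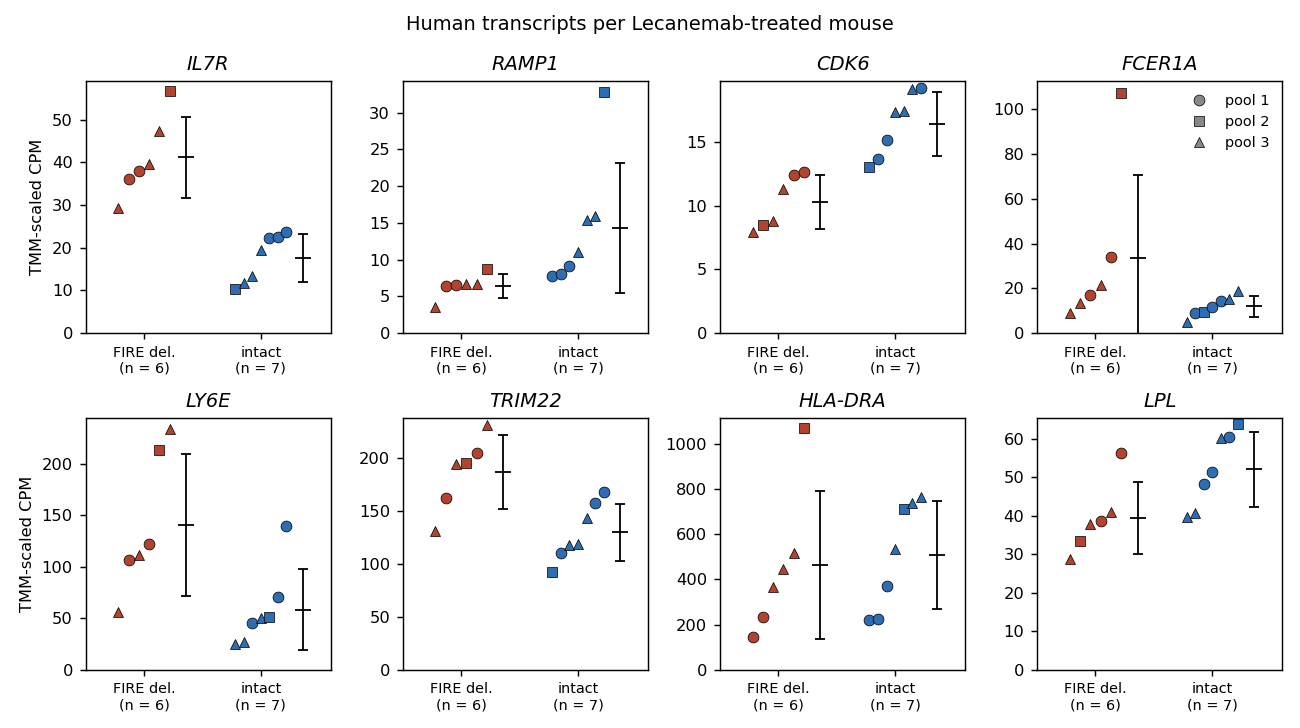
TMM-scaled CPM of 8 human genes in the 13 Lecanemab-treated mice, with a point for each mouse (red FIRE deletion, blue intact, shape by pool) and bars for the mean and SD, cut at 0 for FCER1A. IL7R lies at 29.3 to 56.8 CPM in the FIRE mice and at 10.3 to 23.6 in the intact mice, and CDK6 is below in all FIRE mice.

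Type I interferons signal through the kinases JAK1 and TYK2 to transcription factors that bind interferon-stimulated response elements (ISRE) in the promoters of antiviral genes. The promoter stretches below are shown because the interferon genes were the set that leaned most to one host. They come from the RefSeq promoters of GRCh38.p14 for genes chosen after their values were seen. Only promoters that hold the motif are shown, but holding it was not the only condition, since 24 genes of the list hold it. Some interferon genes with a smaller p are not among them. Their absence does not mean that their promoters lack the motif. The stretches are therefore examples and do not show how common the motif is among the leading genes. Each is read 5′ to 3′ on the strand of the gene. Capitals mark the motif, GAAA repeated after any 2 bases, or its reverse complement, TTTC repeated after any 2 bases.
IFI6, chr1:27672264-27672319, minus strand: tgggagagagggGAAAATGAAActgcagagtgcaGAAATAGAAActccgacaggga
EPSTI1, chr13:42992270-42992303, minus strand: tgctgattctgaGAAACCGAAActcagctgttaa
IFI44L, chr1:78620363-78620396, plus strand: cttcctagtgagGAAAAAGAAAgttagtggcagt
IFITM1, chr11:313988-314021, plus strand: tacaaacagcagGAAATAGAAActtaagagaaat
IFIT1, chr10:89392495-89392541, plus strand: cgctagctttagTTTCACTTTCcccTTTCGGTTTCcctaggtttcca
The motif, on either strand and with overlapping matches allowed, was present within 250 bases before the start of 24 of 37 list genes found in the RefSeq table (64.9%). It was present in 1061 of all 35116 promoters, each counted singly (3.02%), and in 348 of 9627 genes tested (3.61%). It was found in 0 of 11 MHC class II genes and 0 of 22 plaque response genes. In the counts of genes, a match in any promoter of a gene was enough, so these are not on the same footing as the count of single promoters. A match is a string of letters and not a measured binding site.

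All 49 interferon genes tested were higher in FIRE mice under Lecanemab, with a median log2 fold change of 0.70. An unadjusted p under 0.05 was reached by 40 and an adjusted one by 0, against 3.39% of all genes at the unadjusted threshold. IFI6, whose promoter stretch above holds a pair of matches, had a log2 fold change of 1.49 (SE 0.44, unadjusted p = 0.00361). IFITM1, a membrane protein that blocks virus entry, had 1.93 (SE 0.64), IFI44L 1.43, IFIT1 1.30 and EPSTI1 0.74, with edgeR Benjamini-Hochberg adjusted p of 0.641 to 0.663. TRIM22, an antiviral ubiquitin ligase, had 0.55 (SE 0.14), and OAS1, which makes the 2-5A messenger against viral RNA, had 0.53 (SE 0.14). LGALS3BP, a secreted glycoprotein induced by interferon, had 0.99 (SE 0.28).

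The summed level of the list showed how far mice of one host differed among themselves. In pool 1 it was 6217 and 7119 CPM in FIRE mice and 6350, 4060 and 7466 in intact mice. In pool 2 it was 7906 against 2958, and in pool 3 it was 5036, 3286 and 9160 against 2493, 2681 and 3478. FIRE and intact mice overlapped in pool 1 and, through AB92 and AB49, in pool 3. The median log2 difference of the list was 0.116 in pool 1, 1.41 in pool 2 and 0.878 in pool 3, so pools 2 and 3 carried most of it. The genes of this list move together within a mouse, so the count of 49 does not stand for 49 separate observations. When 1 mouse was left out, the median over the list was lowest without AB93 (0.47) and highest without AB13 (0.85).

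LY6E, a membrane protein induced by interferon, stood at 55.7 to 234 CPM in FIRE mice (median 117) and 25.2 to 140 in intact mice (median 50.0). The intact mouse AB05 reached 139.7 CPM and overlapped the FIRE mice. The log2 fold change was 1.40 (SE 0.37), and within pools the log2 difference was 0.58, 2.06 and 1.80. CXCL10, a chemokine that attracts T cells, had a log2 fold change with a wide error (0.74, SE 0.62), 0.28 without AB40 or AB57, 1.23 without AB14, and of opposite sign in pool 1 (-0.93) and the other pools (2.82 and 1.91). IFIT2 had a log2 difference of 0.0018 in pool 1, 2.26 in pool 2 and 1.34 in pool 3.

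Single cells were examined for whether a small group of cells carried the interferon signal. At 1000 UMIs per cell, the median cell held 2 to 7 UMIs of the interferon list in FIRE mice and 2 to 6 in intact mice. Cells with at least 20 such UMIs made up 1.22% to 9.42% of cells in FIRE mice and 0.636% to 8.69% in intact mice. Within pool 3 the share was 1.22%, 1.35% and 9.42% against 0.822%, 0.712% and 0.636%, which did not overlap, while in pool 1 it was 2.26% and 5.95% against 8.69%, 0.970% and 4.72%, which did. Cells with an OAS1 UMI at this depth made up 10.8% to 19.2% against 8.89% to 16.5% (difference 4.85 points, Benjamini-Hochberg adjusted exact permutation p = 0.04). For TRIM22 the difference was 5.23 points (adjusted exact permutation p = 0.042), and for LY6E 6.15 points (adjusted exact permutation p = 0.0514). Of the mostly mouse barcodes, 1.89% held an OAS1 UMI, 1.70% a TRIM22 UMI and 1.58% a LY6E UMI. These barcodes held a median of only 77 human UMIs, so their shares cannot be set against those at 1000 UMIs.

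Genes of antigen presentation by MHC class II leaned the other way. All 12 tested were lower in FIRE mice, with a median log2 fold change of -0.32, and 2 of them had an unadjusted p under 0.05, against 2.85% of all genes. HLA-DRA, the shared alpha chain of HLA-DR, stood at 146 to 1068 CPM in FIRE mice (median 406) and 219 to 765 in intact mice (median 533), so the groups overlapped widely. Its log2 fold change was -0.39 (SE 0.18, unadjusted p = 0.0484). HLA-DQA1 had -0.72 (SE 0.28) and CD74, the invariant chain that guides these molecules, -0.15 (SE 0.13). The direction turned in pool 2, where the median of the list was 0.516, against -0.348 in pool 1 and -0.553 in pool 3, and without either mouse of pool 2 the median was -0.53. Without the pool term it was -0.13, with HLA-DRA at -0.14, HLA-DQA1 at -0.43 and CD74 at -0.062. CD74 was -0.27 without AB40 or AB57. The share of cells with an HLA-DRA UMI differed by -2.77 points at equal depth (adjusted exact permutation p = 0.4175). Of the mostly mouse barcodes, which were much shallower, 4.11% held one. Genes of this family have similar sequences and can share reads.

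The plaque response leaned slightly lower in FIRE mice. Of 28 genes tested 26 were lower, 5 with an unadjusted p under 0.05, against 2.85% of all genes, and the median log2 fold change was -0.17. LPL, the lipoprotein lipase, stood at 28.8 to 56.3 CPM in FIRE mice (median 38.3) and 39.7 to 63.8 in intact mice (median 51.4), a log2 fold change of -0.38 (SE 0.13). TREM2, the lipid receptor required for the response, was below the intact mean of its pool in 6 of 6 FIRE mice, with -0.21 (SE 0.08). MYO1E (-0.36) and LIPA, the lysosomal acid lipase (-0.21), were lower in 5 of 6. SPP1, or osteopontin, ranged from 5055 to 25928 CPM in FIRE mice and from 7845 to 17894 in intact mice, with a log2 fold change of -0.21 (SE 0.31), which ran from -0.56 without AB93 to -0.035 without AB05. APOE, the main lipid carrier, had -0.17 (SE 0.09). The median of the list was -0.226 in pool 1, -0.565 in pool 2 and 0.0241 in pool 3, so it leaned lower in pools 1 and 2. Without AB40 or AB57, the mice of pool 2, the list median was -0.045, and it was -0.094 without AB05 and -0.089 without AB14.

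The list of lipid handling overlaps with the plaque response. Of its 28 genes tested 21 were lower, 5 with an unadjusted p under 0.05, against 2.85% of all genes. Of these 5, 3 are on both lists, LPL, LIPA and APOC1, and 2 are among the 22 tested that are not plaque response genes. The others were APOC2 and PPARG, the lipid-sensing nuclear receptor (-0.46, SE 0.15). APOC1, a small apolipoprotein, had -0.35 (SE 0.16), or -0.20 without AB40 or AB57. The receptor genes that bind the Fc part of antibodies, with their signalling partners, were divided: 9 of 16 were higher, with a median of 0.025 and none with an unadjusted p under 0.05. FCGR3A, the low affinity IgG receptor, had 0.18 (SE 0.10), or 0.084 without AB40 or AB57. Of 54 lysosomal genes 22 were higher, with a median of -0.013.

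Resting microglia genes were close between hosts. Of 26 genes 16 were higher, with a median log2 fold change of 0.036. An unadjusted p under 0.05 was reached by 2, C3 and FCGBP, both higher, against 3.39% of all genes. Complement C3 stood at 2354 to 3702 CPM in FIRE mice and 1983 to 2859 in intact mice, a log2 fold change of 0.29 (SE 0.07). P2RY12 (0.0027, SE 0.11), TMEM119 (-0.014, SE 0.08), CX3CR1 (0.11, SE 0.08) and human CSF1R (0.12, SE 0.08) each differed by less than 2 SE. Human CSF1R stood at 1003 to 1251 CPM in FIRE mice and 913 to 1226 in intact mice, so the grafted cells of both hosts expressed the receptor. Of 30 Alzheimer risk genes 19 were higher, with a median of 0.032. CLU, the chaperone clusterin, was the exception in size (0.78, SE 0.23), with 22.4 CPM in AB57. It was 0.47 without AB57 or without AB40.

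Ribosomal protein genes showed a small difference in one direction. All 76 were lower in FIRE mice, with a median log2 fold change of -0.14, and 20 had an unadjusted p under 0.05, against 2.85% of all genes. The medians were -0.303, -0.0991 and -0.0331 in pools 1, 2 and 3. The median of the list was -0.034 without the pool term and -0.089 without AB14. The summed level was 84160 to 159800 CPM in FIRE mice and 99910 to 170300 in intact mice, a wide overlap over all pools. In pool 1 it was 93670 and 84160 in FIRE mice and 99910, 104100 and 105000 in intact mice. In pool 2 it was 159800 against 170300. In pool 3 it was 155800, 154100 and 138400 against 154800, 147900 and 164400, which overlapped. Of 70 nuclear genes of oxidative phosphorylation 63 were lower, by a median of -0.042 and none with an unadjusted p under 0.05.

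Of 19 heat shock genes 15 were lower, 4 with an unadjusted p under 0.05, against 2.85% of all genes. HSPA1A had a log2 fold change of -0.74 (SE 0.24) and HSPA1B of -0.72 (SE 0.19). These encode inducible HSP70 proteins from nearly identical copies that can share reads, so they are not independent. Under IgG1 the log2 fold change of HSPA1A was 0.07 (SE 0.27). The difference between treatments, -1.025, had an unadjusted p of 0.0186 and an adjusted p of 0.935 by edgeR. The list as a whole was lower under IgG1 too, in 14 of 19 genes, by a median of -0.15 against -0.074 under Lecanemab. There 5 genes were lower at an unadjusted p under 0.05, against 8.38% of all genes. DNAJB4, a co-chaperone, had -0.36 (SE 0.08), below the intact mean of the pool in 6 of 6 FIRE mice.

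Markers of border macrophages were lower in FIRE mice in 11 of 12 cases, with a median of -0.28 and 4 with an unadjusted p under 0.05, against 2.85% of all genes. MARCO, a scavenger receptor, was near the detection limit at 0 to 3.21 CPM in FIRE mice and 1.01 to 8.89 in intact mice (log2 fold change -1.56, SE 0.50). F13A1, a coagulation factor, stood at 15.3 to 45.9 CPM against 24.0 to 76.7 (-0.68, SE 0.23), COLEC12 had -0.61 (SE 0.23) and MRC1 -0.14 (SE 0.25). SIGLEC1 was the exception at 0.63 (SE 0.26), or 0.40 without AB93 and 1.73 without the cells rich in macrophage markers, and is also on the interferon list. The summed level of these markers was 1321 to 2445 CPM in FIRE mice and 1166 to 3018 in intact mice. The median was -0.17 without AB02, and -0.13 in cells with at most 1% mouse UMIs. Without cells that held at least 3 UMIs over 7 such markers, it was 0.0074. These 7 markers are themselves on the list, so this filter removes their UMIs by design and does not test the difference. The interferon median was within 0.60 to 0.75 under this and all other alternatives that kept every mouse.

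FCER1A, the alpha chain of the IgE receptor, stood at 8.94 to 107 CPM in FIRE mice (median 19.3) and 5.07 to 18.9 in intact mice (median 11.7). AB57 alone reached 107.1, the groups overlapped, and the log2 fold change was 1.21 (SE 0.40), or 0.69 without AB57 and 0.70 without AB40. Of 15 genes listed for mast cells, basophils and dendritic cells, 8 were at 0 in all 13 mice, among them TPSAB1, TPSB2, CPA3, KIT and HDC. Others were detected: over all mice CLEC9A had 312 UMIs, LAMP3 89, CD1C 25, CCR7 22, MS4A2 14 and GATA2 1. The scavenger receptor CD36 (-0.20, SE 0.13) and ANKRD22 (-0.03, SE 0.52), the latter with 4.03 to 59.1 CPM among FIRE mice alone, were not distinguishable between hosts.

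The same contrast in IgG1-treated mice used other animals of the same pools. Of 12929 tested, 9 (0.0696%) were higher and 24 (0.186%) lower in FIRE mice by edgeR's quasi-likelihood test with Benjamini-Hochberg adjustment. At an unadjusted p under 0.05, 694 (5.37%) were higher and 1083 (8.38%) lower. Without AB12, 19 and 37 of 12846 were called. These calls rested on single mice: 0 and 0 were called without AB03, AB04, AB53, AB56 or AB86, 1 and 2 without AB79, and 4 and 3 without AB90, while there were 21 and 82 without AB52. IL7R rose there by 0.83 on the log2 scale (SE 0.13, edgeR adjusted p = 0.0267), and by 0.90 without AB12 (edgeR adjusted p = 0.00108). RAMP1 fell by 0.77 (edgeR adjusted p = 0.0267) and FCER1A rose by 1.56 (edgeR adjusted p = 0.0267). These 3 genes thus pointed the same way under both treatments.

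Across 12890 genes tested under both treatments, 61.0% had the same sign, and among 802 genes with an unadjusted p under 0.05 under Lecanemab 613 (76.4%) did. Of the 33 genes called under IgG1, 30 had the same sign under Lecanemab, 13 of them with an unadjusted p under 0.05. The exceptions were SYNE2, LINC01141 and TRPV2, with log2 fold changes of 0.19, 0.053 and 0.23 under Lecanemab. No mouse is in both contrasts, but the pools and libraries are the same. The interferon list had a median of 0.47 under IgG1, with 9 of 49 genes higher at an unadjusted p under 0.05, against 5.37% of all genes. Without AB12 its median was 0.61 with 39 such genes, against 744 of all 12846 tested.

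Whether the genotype difference itself depended on treatment was tested in 1 fit over 26 mice. Of 13699 genes, 0 (0%) passed adjustment by edgeR's quasi-likelihood test, with 333 and 313 at an unadjusted p under 0.05 in the 2 directions and a smallest adjusted p of 0.935. The cell cycle list had the widest gap between the medians under both treatments. Under Lecanemab 30 of 40 genes were lower in FIRE mice by a median of -0.088, with none at an unadjusted p under 0.05. Their medians were -0.102 in pool 1, -0.98 in pool 2 and 0.144 in pool 3, and the list median turned to 0.037 without AB40, 0.041 without AB57 and 0.017 without AB41. Under IgG1 36 of 39 were lower by a median of -0.89, with 27 at an unadjusted p under 0.05 and 5 called. Over all genes under IgG1, 8.38% were lower at an unadjusted p under 0.05 and 0.186% were called lower. MKI67, a marker of dividing cells, had a log2 fold change of -0.03 (SE 0.41) under Lecanemab and fell by 1.85 (SE 0.35) under IgG1. The interaction for MKI67 was 1.79 (unadjusted p = 0.00649, edgeR adjusted p = 0.935), which did not pass. MAP2K6 and DISP1, with log2 fold changes of -0.0025 and 0.04 under IgG1, had unadjusted interaction p of 0.00271 and 0.00334 and did not pass adjustment either.

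**Figure D3:**
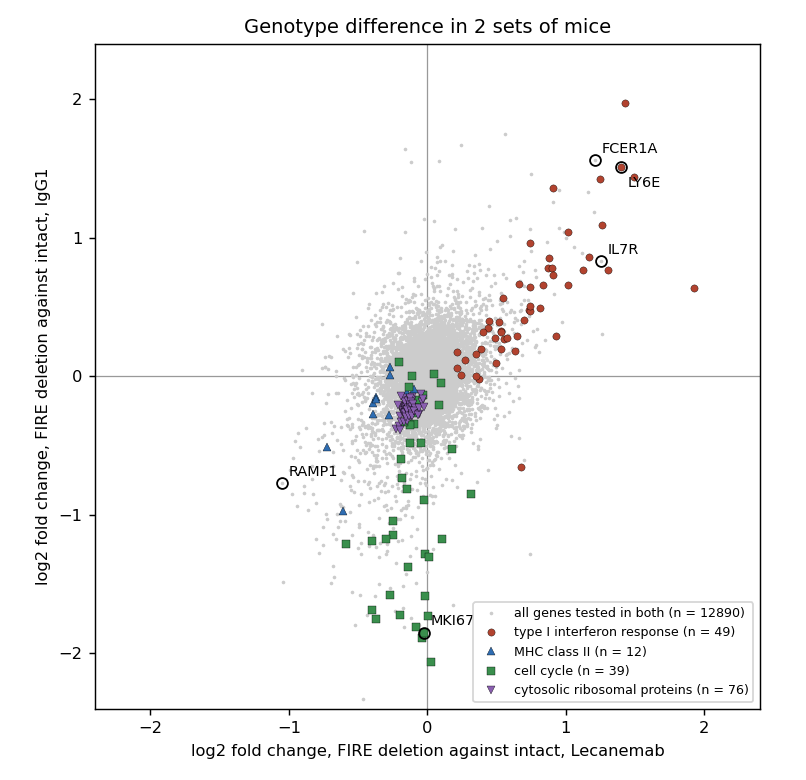
Log2 fold change of each gene (FIRE deletion over intact) under Lecanemab (horizontal) and under IgG1 (vertical), for 12890 genes in grey and 4 gene lists in colour, with 5 genes labelled. IL7R, FCER1A and RAMP1 lie in the same direction under both treatments, while MKI67 is at -0.03 under Lecanemab and at -1.85 under IgG1.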

How the data were processed

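Microglia of 27 mice were sequenced in 5 droplet libraries with hashtag antibodies. The deposited values are raw UMI counts per barcode that the authors made; their processing notes name Cell Ranger 6.1.2 and Seurat 4.2.3 with GRCh38 and mm10. Mice came from hashtag names called by HTODemux (Seurat 5.3.0, quantile 0.99), and hashtag doublets were removed. Doublets within a mouse were not called. Mice of library 4, whose labels contradict each other, were assigned by hashtag name, and an alternative dropped this library. Kept cells shared 49 barcodes between libraries 1 and 2 and 15 between libraries 4 and 5.

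Human UMIs were summed per mouse (1124 to 3616 kept cells in Lecanemab-treated mice), filtered with filterByExpr, scaled by TMM and tested with edgeR 4.0.16 (R 4.3.3), pool as block, Benjamini-Hochberg threshold 0.05. CPM used TMM-scaled totals for genes, and raw totals for lists and markers. Alternatives used DESeq2 1.42.0, limma 3.58.1, other filters, scalings and samples. Per-mouse values and shares were compared by exact permutation within pools. The scripts were tested on simulated data. The members and lists were chosen with earlier results of these data known. Genes named are the 5 of smallest p in each direction, up to 4 per list and a set always named. Others were chosen after their values were seen. Results for some genes are not reported here.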

Additional observations from a re-analysis of the deposited data

Results flagged for a closer look

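Among groups of mice checked for a single sample far from the rest, 10 of 114 held one, where chance gives about 1 in 20. AB57, the only FIRE mouse of pool 2, had 4 of them: 86.67 CPM of HLA-DQA1, 107.1 CPM of FCER1A, 22.43 CPM of CLU and 10.61 mouse Csf1r UMIs per 1000 singlets, each the highest of the FIRE mice. AB93 was the highest FIRE mouse for SPP1 (25930 CPM), and AB13 for AL445623.2 (4.457 CPM). Among intact mice, AB40, the only one of pool 2, was highest for RAMP1 (32.85 CPM) and APOC1 (3841 CPM), AB05 for LY6E (139.7 CPM) and AB02 for F13A1 (76.67 CPM).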

How the results depend on the processing

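Under Lecanemab, 0 genes passed adjustment whichever mouse was left out (0 to 0). DESeq2 called 6 higher and 4 lower, a fit over all mice 1 and 2, and the filter at 2.5 median absolute deviations and equal cells per mouse 1 higher each. Testing without a low-count filter called 116 and 94 (699 and 687 unadjusted); the cause was not tested. Without a pool term, 163 and 125 genes had an unadjusted p under 0.05. Leaving out 1 mouse gave 295 to 539 higher and 292 to 499 lower unadjusted, with 295 without AB40 and 301 without AB57. The IgG1 calls rested on single mice: leaving out 1 gave 0 to 24 higher and 0 to 82 lower, with none without AB03, AB04, AB53, AB56 or AB86, 1 and 2 without AB79, 4 and 3 without AB90, 19 and 37 without AB12, 24 and 56 without AB16, 18 higher without AB38, and 21 and 82 without AB52. Interaction counts were 0 to 0.

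Genes close to 0 changed sign. P2RY12 was -0.0031 with DESeq2 and with RLE factors, -0.088 without a pool term, -0.0030 at 2.5 median absolute deviations, -0.018 without macrophage-marker cells, -0.021 without library 4, -0.0015 from library 1, -0.012 with the mouse share as covariate and -0.0044 over all mice. ANKRD22 was 0.35 with limma-voom, 0.50 without a pool term, 0.0100 at quantile 0.95, 0.16 at equal cells, 0.065 and 0.18 from library 1 and 2, and 0.41 with the covariate. TMEM119 was 0.00081 with library totals. MRC1 was 0.041 at 1% mouse UMIs and, without macrophage-marker cells, 0.34, with COLEC12 at 0.0074 and CD36 at 0.072. Leaving out 1 mouse gave ANKRD22 -0.30 to 0.51, MRC1 -0.26 to 0.052, P2RY12 -0.043 to 0.076 and TMEM119 -0.060 to 0.033. It also turned differences per mouse that lay near 0: median UMIs -264.4 to 53.4, median genes -66.0 to 26.03, mitochondrial percent -0.0075 to 0.279, mouse percent -0.019 to 0.035 and macrophage-marker percent -1.44 to 3.10. The median of the cell cycle list also crossed 0 (-0.23 to 0.041). Of the named genes rerun, all others kept their direction in every alternative. Without thinning, the adjusted exact permutation p of the share of cells fell to 0.0375 for MAP2K6, LY6E and F13A1 and to 0.02 for CDK6, and rose to 0.0633 for PARP9. The alternatives with library 1 or 2 alone and the fits without AB12 were added after the data were seen. Pool 2 holds 1 mouse per host, and groups of 6 and 7 mice limit what can be called. No paired analysis was possible because the replicate numbers of the labels do not link FIRE and intact mice.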
